A study of Mus musculus with 16 samples.

Results

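The cells described here are those that the authors' deposited annotation names cancer stem cells in libraries made from whole, unsorted neuroblastoma grafts. They were taken by that name and by library, and by no measured value: 314 cells of a wild type (WT) tumor library and 461 cells of a knockout (KO) tumor library, 775 of the 10852 tumor cells and of 20376 cells in the whole series. They were 6.34% of the WT library (exact binomial 95% interval 5.67 to 7.05%) and 7.82% of the KO library (7.14 to 8.53%). They carried less of the RNA than of the cells, with 0.833% of the WT and 1.51% of the KO library's UMIs (unique molecular identifiers, each marking 1 captured mRNA molecule).

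Male C57BL/6 mice, 8 weeks old, were either wild type or CD200R-/-, which lack the inhibitory receptor for CD200 on myeloid cells. All received the mouse neuroblastoma line NB9464D under the skin, and tumors were taken on day 28 and digested with collagenase. One protocol label gives the knockout as CD200-/- in place of CD200R-/-. The graft was the same line in both hosts, so the deletion is the host's. The labels list 4 tumor samples per genotype, but the cells carry only a group name, so each genotype was 1 library: no test between genotypes was possible, intervals cover counting error only, and genotype, animal and preparation cannot be told apart. Cd200r1, the gene of the receptor, had 76 UMIs in the WT and 5 in the KO tumor library, and 0 in the cells named cancer stem cells of either.

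A cancer stem cell is a tumor cell that can renew itself and regrow the tumor, and it is usually recognised by surface proteins such as CD133 (Prom1) and CD44 together with regulators of immature cells such as Sox2 and Nes. Red blood cell precursors are recognised by other genes: hemoglobin chains, and Alas2, the enzyme that starts heme synthesis in erythroid cells. In single-cell libraries a cell also leaves technical marks of its state, because long noncoding RNAs such as Malat1 stay in the nucleus, mRNAs of secreted proteins sit on the endoplasmic reticulum, and the RNAs of the mitochondrial genome stay inside the organelle.

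The markers given for these cells were Gm42418 and Alas2, and neither stood for the class as a whole. Gm42418 (ENSMUSG00000098178.1, mm10, chromosome 17, 39846958 to 39848788, plus strand) is annotated as a long intergenic noncoding RNA and overlaps ribosomal RNA sequence. Alas2 (ENSMUSG00000025270.13, mm10, chromosome X, 150547375 to 150570638, plus strand) is protein coding. Alas2 reached 56.95 CPM (a gene's share of all UMIs of the class, on the scale where 10000 CPM is 1%) in the WT and 33.7 CPM in the KO cells named cancer stem cells, against 1.23 and 0.120 CPM in the cells named neuroblastoma and 1.58 and 0.530 CPM in the cells named fibroblasts of the same libraries. Only 7 of the 314 WT and 7 of the 461 KO cells had an Alas2 UMI, and all of the 49 and 53 Alas2 UMIs lay in cells with over 10% hemoglobin UMIs.

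Stem cell markers were low. The 17 measured genes of the cancer stem cell list summed to 55.8 CPM in WT and 96.1 CPM in KO cells, below the neuroblastoma cells (178 and 210 CPM) and the fibroblasts (193 and 347 CPM). Of the list, 9 members had a UMI in WT and 10 in KO. Prom1 was at 0 in both, where the floor of 3 counts is 3.49 CPM in WT and 1.91 CPM in KO, and Kit, Pou5f1 and Alcam were also at 0. Sox2 was at 1.16 CPM in WT and at 0 in KO. Prom1 and Sox2 were scarce in the other classes as well. In WT, Prom1 had 4 UMIs in neuroblastoma cells and 7 in fibroblasts, and Sox2 had 31 and 15. In the KO library both genes had 0 UMIs in both classes. Cd44, a hyaluronan receptor, was at 1.16 CPM in WT and 13.4 CPM in KO, against 12.9 and 26.8 CPM in neuroblastoma cells. Only Klf4 and Bmi1 of the list passed the expression filter described below. Bmi1, a Polycomb repressor of stem cells, was at 26.7 and 42.0 CPM against 45.5 and 35.2 CPM in neuroblastoma cells and was not called. Klf4, a transcription factor that is also an early stress gene, was lower than in both other classes in both libraries (5.81 against 51.7 and 82.6 CPM in WT, 18.5 against 113 and 210 CPM in KO). In WT it passed the filter only through the other classes, so that there it had to be lower, and that call is no support. Klf4 also weighed on the sums of the list. In KO it gave 113 of the 210 CPM of neuroblastoma cells and 210 of the 347 CPM of fibroblasts. In WT it gave 51.7 of 178 and 82.6 of 193 CPM. Most of the KO gap in the sums thus came from this early stress gene. Neither Klf4 nor Bmi1 was higher than in both classes. The other members did not pass the filter and could not be called in either direction. These levels thus give the name no called marker, and it is kept below only as the authors' label.

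Some droplets of different libraries carried the same cell barcode. Of the cells named cancer stem cells, 17 in WT (5.41%) and 16 in KO (3.47%) had a barcode that also occurs in another library of the series. In 31 of these 33 the copy described here was at least 10 times shallower than the deepest cell with that barcode, with a median of 1.07% of its UMIs (range 0.491 to 6.42%). Leaving these 33 cells out changed no direction among the genes named below. Without them 8 genes were higher and 173 lower than in both other classes, against 8 and 169 with them.

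These were shallow cells. The WT cells named cancer stem cells had a median of 1943 UMIs and 574 genes, and the KO cells 2171 UMIs and 845 genes. Neuroblastoma cells had medians of 27927 (WT) and 31582 UMIs (KO), and fibroblasts 18299 and 18136 UMIs. Under 5000 UMIs lay 86.3% of the WT and 79.2% of the KO cells named cancer stem cells, but 0% and 0.546% of neuroblastoma cells and 0.975% and 2.53% of fibroblasts. With every cell thinned to 500 UMIs, which kept all cells, the median number of genes was 324 in WT and 346 in KO, beside 342 and 351 in neuroblastoma cells and 322 and 340 in fibroblasts. At equal depth the 3 classes gave similar numbers of genes, and the low number in the cells named cancer stem cells went with their low UMI totals.

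Their share of mitochondrial RNA spread widely, from cells with almost none to cells with little else. The median was 1.57% in WT (quartiles 0.328 and 13.5%) and 0.988% in KO (0.268 and 5.54%). Neuroblastoma cells had medians of 5.99 and 7.93%, with quartiles 4.90 and 7.24% in WT, and fibroblasts had 6.24 and 9.23%. Under 1% mitochondrial UMIs lay 135 WT cells (43.0%, interval 37.5 to 48.7%) and 232 KO cells (50.3%, 45.7 to 54.98%) named cancer stem cells, against 0 and 1 neuroblastoma cells and 9 and 9 fibroblasts. At the other end 87 WT cells (27.7%) and 76 KO cells (16.5%) exceeded 10%, beside 4.38 and 21.5% of neuroblastoma cells and 10.0 and 41.1% of fibroblasts, so the KO share was below both KO classes. The spread at that end was wider, with the uppermost decile of cells starting at 83.3% in WT and 60.1% in KO, against 8.82 and 11.8% in neuroblastoma cells and 10.01 and 14.7% in fibroblasts. A class that the authors name hematopoietic stem cells also had high shares, with medians of 39.1 and 39.1%. After thinning to 500 UMIs, 13.1% of the WT and 16.1% of the KO cells had no mitochondrial UMI at all, and the same was true of at most 0.120% of cells in any of the 4 comparison groups.

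**Figure D1:**
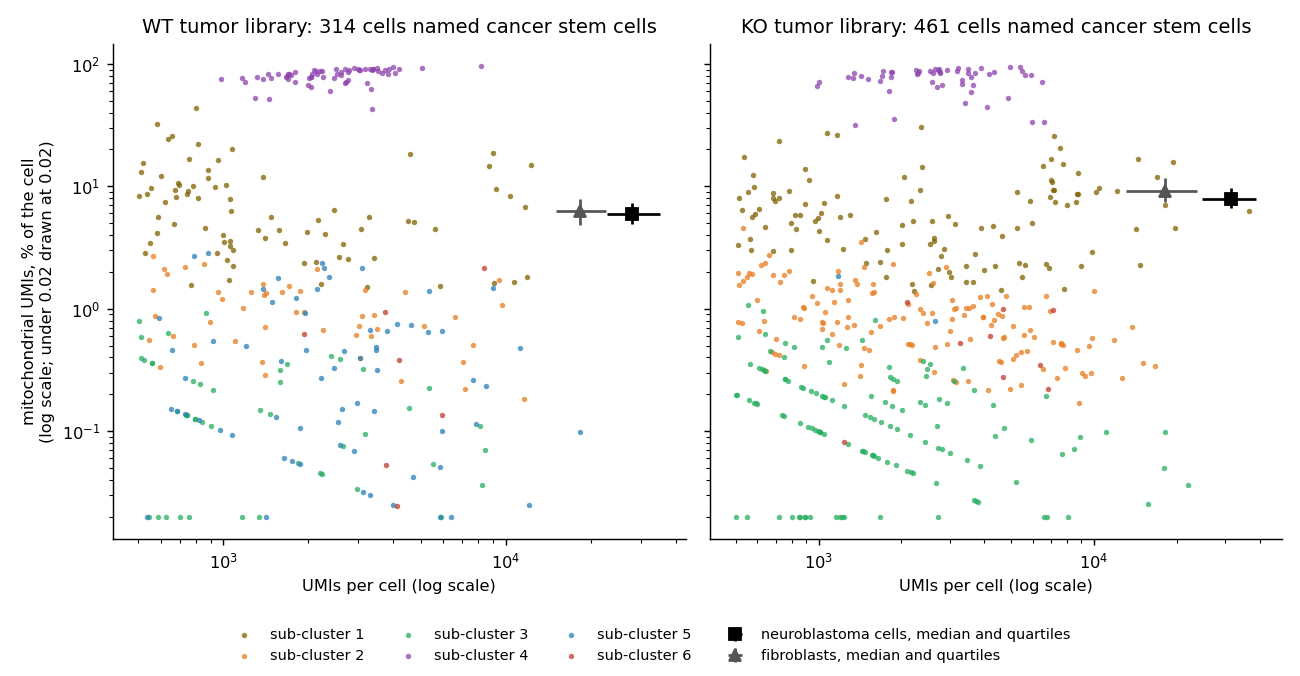
UMIs per cell (x axis, log scale) and mitochondrial UMIs as a percent of the cell (y axis, log scale, values under 0.02 drawn at 0.02) for every cell named cancer stem cell in the WT (314 cells) and KO (461 cells) tumor library, coloured by the sub-clusters described below. The square and triangle are the medians of neuroblastoma cells and fibroblasts with their quartiles; most points lie to the left of both, either far below or, for sub-cluster 4, far above them in mitochondrial share.

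RNAs that stay in the nucleus were scarce. Malat1 (mm10, chromosome 19, 5795690 to 5802672, minus strand), a nuclear long noncoding RNA found in nearly all mammalian cells, was at 2449.8 CPM in WT and 2290.0 CPM in KO. Neuroblastoma cells had 13556 and 12055 CPM and fibroblasts 17190.0 and 16070.0 CPM. The levels in both libraries were thus below all 4 comparison values. A Malat1 UMI was found in 51.0% of WT and 45.3% of KO cells, against 99.2 to 100% of cells in the comparison classes. The gap held at equal depth: at 500 UMIs per cell the shares were 28.7% (interval 23.7 to 34.0%) and 24.9% (21.1 to 29.2%), against 93.5 and 90.3% in neuroblastoma cells and 92.5 and 88.8% in fibroblasts. Kcnq1ot1, the antisense RNA that silences an imprinted domain, was at 40.7 CPM in WT and 33.7 CPM in KO, against 503 and 494 CPM in neuroblastoma cells and 611 and 679 CPM in fibroblasts. Neat1, the scaffold of nuclear paraspeckles, was at 20.9 and 19.7 CPM against 218 and 178 CPM in neuroblastoma cells. Kcnq1ot1 is annotated as antisense to another gene, and how strand was counted is not given in the sources used here.

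**Figure D2:**
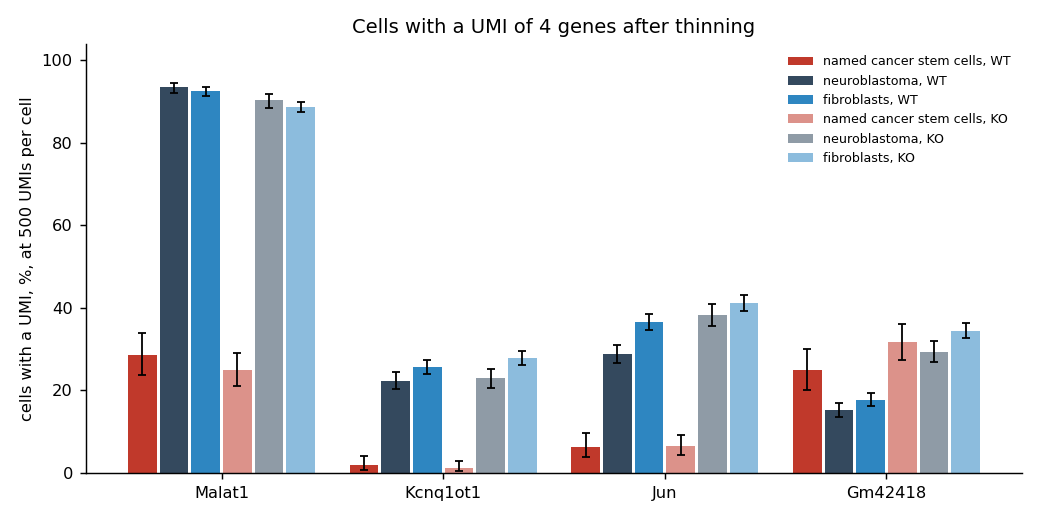
Percent of cells with at least 1 UMI (y axis) of Malat1, Kcnq1ot1, Jun and Gm42418 after every cell was thinned to 500 UMIs, in cells named cancer stem cells, neuroblastoma cells and fibroblasts of each tumor library, with exact binomial 95% intervals. The cells named cancer stem cells lie far below the other classes for Malat1, Kcnq1ot1 and Jun, and not for Gm42418.

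Across all genes, 4015 had enough UMIs to be compared with both neuroblastoma cells and fibroblasts in both libraries (at least 20 UMIs expected in the smaller arm). Ratios are relative to the median gene. Because the class is a cluster of cells chosen by the authors from the same genes, these ratios are a description and not a test. The median gene itself lay 0.20 to 0.31 (log2) below each other class by total UMIs, and scaled that way 7 genes were higher and 263 lower. Relative to it, 8 of the 4015 (0.199%) were at least 2-fold higher in all 4 comparisons, and 169 (4.21%) were at least 2-fold lower. The median over all genes was 0.11 on the log2 scale.

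The 8 higher genes were Hba-a1, Hba-a2, Hbb-bs and Hbb-bt, which encode the alpha and beta chains of adult hemoglobin, Alas2, Bpgm (59.3 and 38.8 CPM against 10.6 and 7.88 CPM in neuroblastoma cells), the enzyme that makes the bisphosphoglycerate of red cells, Mkrn1, a ubiquitin ligase, and Eno1b, an enolase copy that may share reads with Eno1. The copies within each hemoglobin pair are near identical, and their UMIs may be split between them. Hbb-bs (mm10, chromosome 7, 103826534 to 103828096, minus strand) stood at 15891 CPM in WT and 9593 CPM in KO. Its level was 402 and 71.5 CPM in neuroblastoma cells and 470 and 130 CPM in fibroblasts. Of the 21 erythroid genes in the files 6 passed the filter, and their median log2 ratio was 6.36 against 0.11 over all genes. Alas2 and Bpgm passed only through the cells in which they were high, so that they had to be higher, and the count of 6 is no support. Eno1b, at 18.7 and 19.0 CPM in WT neuroblastoma cells and fibroblasts, also passed only in this way.

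That erythroid signal belonged to 15 of the 775 cells. In WT 7 and in KO 8 cells had over 10% of their UMIs from hemoglobin genes, from 14.9 to 92.8% in WT and from 12.6 to 92.6% in KO. They held 99.1% of the hemoglobin UMIs of the WT and 99.2% of those of the KO cells. The cells outside them had 276 CPM (WT) and 169 CPM (KO) of hemoglobin RNA, beside 493 and 11.8 CPM in neuroblastoma cells and 228 and 55.1 CPM in fibroblasts without their own such cells. Any hemoglobin UMI was found in 53.8% of WT and 11.9% of KO cells. Neuroblastoma cells had 69.0 and 28.9%, and B cells, which do not make hemoglobin, 43.1 and 10.1%. Median depths were 1943 and 2171 UMIs, against 27927 and 31582 for neuroblastoma cells and 1491 and 1153 for B cells. With every cell thinned to 500 UMIs, Hbb-bs was found in 16.6% of WT and 3.47% of KO cells. Neuroblastoma cells then had 2.22 and 0.234%, fibroblasts 2.19 and 0.521%, and B cells 12.1 and 2.14%. At equal depth the shares were thus above those of neuroblastoma cells and fibroblasts, and nearer to B cells. These shares include the cells with over 10% hemoglobin UMIs. An alternative chosen after seeing the data left such cells out of all 3 classes. In it 1 gene of 3920 was at least 2-fold higher than in both classes in both libraries, Eno1b, and 163 were lower. Eno1b passed the filter only through the cells named cancer stem cells, so that it had to be higher and is no support. The erythroid list then had a median of 1.70 over 3 measured members, none of them called. Of the hemoglobin-rich cells of the whole library, 7 of 20 in WT and 8 of 13 in KO carried the name cancer stem cell.

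The 169 lower genes included much of the fast transcriptional response. Of 16 immediate early and stress genes 13 were measured, of which 11 were lower (4.21% over all genes) and 0 higher, with a median log2 ratio of -2.76. The filter uses the mean of both arms, so a gene that is low in one can pass through the other. Summed over all 16, with no filter, the list was at 545 and 670 CPM against 4071 and 6196 CPM in neuroblastoma cells and 4832 and 7181 CPM in fibroblasts. Fosb, a subunit of the AP-1 transcription factor, stood at 23.2 CPM (WT) and 24.2 CPM (KO), against 459 and 765 CPM in neuroblastoma cells and 471 and 732 CPM in fibroblasts. Its mean log2 ratio was -4.39, next to Ccn1 at -4.38. Jun, its partner in AP-1, had 107 and 111 CPM against 917 and 1189 CPM in neuroblastoma cells. At 500 UMIs per cell a Jun UMI was found in 6.37% of WT and 6.51% of KO cells, against 28.9 and 38.3% of neuroblastoma cells and 36.5 and 41.2% of fibroblasts. Fos, Egr1, a zinc finger factor induced by growth factors, and Btg2, an antiproliferative p53 target, had mean log2 ratios of -3.28, -3.25 and -3.85. Ccn1, a secreted matrix protein that is itself a rapid response gene, had 2 and 16 UMIs, the first under the floor of 3 counts, which is 2.32 and 10.2 CPM against 81.1 and 143 CPM in neuroblastoma cells. In WT, Ccn1 and Btg2 (18 UMIs) passed the filter only through the other classes, so their place is partly set by it.

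The nuclear-retained noncoding RNAs were all lower among those measured, with a median of -3.54, where 4.21% of all genes were lower. They were 4 of 4: Malat1, Neat1, Kcnq1ot1 and Mir99ahg, the host transcript of a microRNA cluster. Neat1 (18 WT UMIs) and Mir99ahg (5 WT and 13 KO UMIs) passed the filter only through the other classes. Their place among the lower genes is thus partly set by the filter. Summed over all 12 of the list, with no filter, the cells were at 2558 CPM in WT and 2411 CPM in KO. Neuroblastoma cells had 14436 and 12927 CPM and fibroblasts 18332.5 and 17344 CPM. Malat1 made up most of each sum. Tmx4, a membrane thioredoxin of the endoplasmic reticulum (2.32 and 5.09 CPM against 54.5 and 90.9 CPM in neuroblastoma cells), Dnm3os, a noncoding transcript that hosts microRNAs, Ppp1r15a, the phosphatase subunit that ends the integrated stress response, and 4632427E13Rik, an uncharacterised transcript, completed the 12 lowest genes, with mean log2 ratios from -4.23 to -3.45. In that order they had 2, 4, 3 and 4 WT UMIs. In WT they too passed only through the other classes, so their place is also partly set by the filter.

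Matrix genes formed the next group. Of 22 extracellular matrix genes 13 were measured, of which 8 were lower (4.21% over all genes) and 0 higher, with a median of -1.92. Summed over all 22, they were at 1072 and 1018 CPM against 3682 and 2443 CPM in neuroblastoma cells and 5148 and 5519 CPM in fibroblasts. Of 9 measured fibroblast genes 5 were lower (median -1.98). Col1a1, a chain of collagen I, was at 112 CPM in WT and 133 CPM in KO, against 578 and 402 CPM in neuroblastoma cells and 723.5 and 630.5 CPM in fibroblasts. Col3a1, collagen III, was at 174 and 117 CPM against 1055 and 336 CPM in neuroblastoma cells. Fn1, fibronectin, was at 31.4 and 52.8 CPM against 148 and 143 CPM. Sparc, a secreted collagen-binding protein, passed the filter and was not called lower, with 184 and 181 CPM against 183 and 391 CPM in neuroblastoma cells. Not all matrix genes were low.

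A further 6 lists were added after values had been seen, and are given only as values. Beside their counts stand 4.21% lower and 0.199% higher over all genes, and a gene low in these cells can pass through the other class. Of 13 measured integrins and membrane glycoproteins 8 were lower (median -1.41), among them Itgb1, the common integrin beta chain, Aplp2, an amyloid precursor relative, and Lrp1, a scavenger receptor. Summed over all 20, with no filter, they were at 1167 and 917 CPM. Neuroblastoma cells had 2262 and 1744 CPM and fibroblasts 2633 and 2656 CPM. Of 15 chaperones of the endoplasmic reticulum 2 were lower (median -0.84), Hspa5, the main one, standing at 212 and 208 CPM against 599 and 552.5 CPM in neuroblastoma cells and 606 and 643 CPM in fibroblasts. The 15 members of the protein translocation machinery had a median of -0.35, with 2 lower. Cytosolic machinery lay on the other side of the median gene: the chaperonin ring (8 members) was at 0.46, the proteasome core (14 members) at 0.58 and the translation factors (16 members) at 0.28, with 0 called in either direction in each.

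Housekeeping groups had medians close to the median gene. With 4.21% lower and 0.199% higher over all genes, few calls would be found in groups of this size. Of 82 ribosomal protein genes 0 were called (median 0.22), and of 22 nuclear genes of oxidative phosphorylation 0 were called (median 0.45). The 17 measured hypoxia and glycolysis genes had a median of 0.53, again with 0 called. The 13 mRNAs of the mitochondrial genome had a median of 1.11, with 0 called, although the median cell had less mitochondrial RNA than the other classes. The sums are carried by the minority of cells with a very high share. Without cells over 10% mitochondrial UMIs in all classes, the median of the 12 still measured was -2.04. The heat shock list split, with 3 of 10 lower. The inducible Hspa1b was among them, at 13.9 and 25.5 CPM against 115 and 192 CPM in neuroblastoma cells. In WT it passed the filter only through the other classes. The constitutive Hspa8 was at 2174 and 1902 CPM against 2188 and 2039 CPM.

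Gm42418, the other given marker, was at 909 CPM in WT and 1262 CPM in KO, against 310 and 647 CPM in neuroblastoma cells and 369 and 812 CPM in fibroblasts. Its mean log2 ratio was 1.36, and the lowest of the 4, against KO fibroblasts, was 0.89, so that it was not called. The level came from the cells rich in mitochondrial RNA. It was 5389 CPM in the sub-cluster of such cells described below and 142 to 650 CPM in the others, and without cells over 10% mitochondrial UMIs its mean log2 ratio was -0.67. At 500 UMIs per cell a Gm42418 UMI was found in 24.8% of WT and 31.7% of KO cells, against 15.1 and 29.4% of neuroblastoma cells and 17.7 and 34.5% of fibroblasts, so the KO share lay within the range of the other classes.

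**Figure D3:**
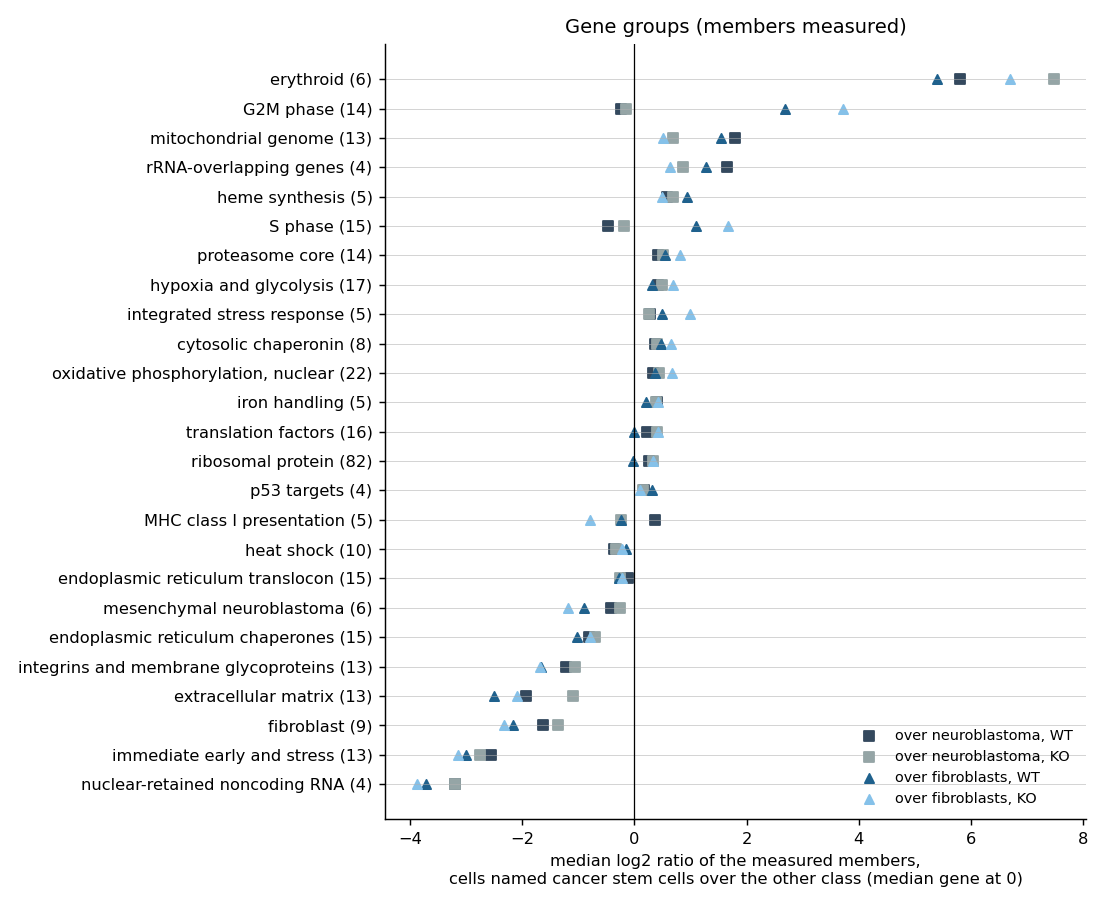
Median log2 ratio (x axis, relative to the median gene) of the measured members of each gene list, cells named cancer stem cells over neuroblastoma cells (squares) and over fibroblasts (triangles) in the WT and KO tumor libraries, for lists with at least 4 measured members (number in brackets). Nuclear-retained RNAs, immediate early genes and matrix genes lie to the left in all 4 comparisons and erythroid genes to the right, while cell cycle genes lie near neuroblastoma cells and above fibroblasts.

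Cell cycle genes set the cells nearer to the neuroblastoma class than to the fibroblasts. Over neuroblastoma cells the 14 measured genes of the G2 and M phases had medians of -0.24 in WT and -0.16 in KO, and over fibroblasts 2.68 and 3.73. Summed over all 20 of that list, with no filter, the cells were at 1921 and 2788 CPM. Neuroblastoma cells had more, 3874 and 4172 CPM, and fibroblasts 369 and 351 CPM. The 15 S phase genes had medians of -0.48 and -0.19 over neuroblastoma cells and 1.10 and 1.68 over fibroblasts. Birc5, the mitotic survival protein survivin, was at 416 CPM in WT and 721 CPM in KO, against 624 and 725 CPM in neuroblastoma cells and 74.9 and 74.9 CPM in fibroblasts. Cdk1, the kinase that drives entry into mitosis, was at 241 and 178 CPM against 288 and 227 CPM in neuroblastoma cells and 24.9 and 12.7 CPM in fibroblasts. Mki67, a proliferation marker on mitotic chromosomes, was lower than in neuroblastoma cells (25.6 and 74.5 CPM against 210 and 296 CPM), so the list did not move as one. Hand2, a transcription factor of the sympathetic lineage, was at 137 and 188 CPM, near the neuroblastoma cells (155 and 245 CPM) and near the fibroblasts too (181 and 333 CPM).

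Across genes with at least 20 expected UMIs, the summed profile of the WT cells had a Pearson correlation of log2(CPM + 10) of 0.933 with neuroblastoma cells, 0.909 with fibroblasts and 0.933 with the rest of the library (3610 genes). In KO the values were 0.943, 0.884 and 0.929 (6379 genes). Leukocyte classes lay lower, at 0.820 in WT and 0.773 in KO for the cells named M2 macrophages. The profiles share a library and its free RNA, and genes are not independent replicates.

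Markers of other cells were summed in the same way. The leukocyte list came to 30.2 CPM in WT and 75.1 CPM in KO, above the 22.1 and 44.4 CPM of neuroblastoma cells. The macrophage list was at 153 and 77.0 CPM against 202.5 and 101 CPM, and the dendritic cell list at 157 and 164 CPM against 205 and 169 CPM. Hematopoietic stem and progenitor genes were at 86.0 and 162 CPM against 165 and 370.5 CPM. Endothelial genes were at 79.0 CPM in WT, above the 49.99 CPM of neuroblastoma cells, and at 40.1 CPM in KO against 44.3 CPM. The platelet list was at 2.32 and 8.28 CPM. Mast cell genes were at 0 in WT and 24.8 CPM in KO, and all 39 of those UMIs lay in 1 cell of 2017 UMIs.

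Clustering the 775 cells by themselves gave 6 sub-clusters of 198, 195, 177, 120, 69 and 16 cells, which differed in mitochondrial share. Their genes defined them, so their levels are a description. Sub-cluster 1 (median 5.58% mitochondrial UMIs) was led by matrix and surface genes such as Col4a2, Hspg2, Fn1 and Aplp2 and by Fosb, and 31 of the 33 cells with a barcode in another library lay in it. Sub-clusters 2 and 3 had medians of 0.808 and 0.126% mitochondrial UMIs with 30.8 and 30.7% ribosomal protein UMIs, and Malat1 at 1519 and 307 CPM. Sub-cluster 4 had a median of 82.6% mitochondrial and 4.46% ribosomal protein UMIs, only 281.5 genes per cell at 2665 UMIs, and Malat1 at 6392 CPM. Sub-cluster 5 had 0.316% mitochondrial UMIs and was led by Nsg1, Cdo1, Crabp2, Acot1, Bgn and Vim. Sub-cluster 6, with 7 erythroid markers among its 10 leading genes and 762254 CPM of hemoglobin RNA, was erythroid-like. The other 5 had no listed cell type marker among their 10 leading genes and median depths of 8.38 to 14.6% of those of their libraries, and are left unnamed.

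Sub-clusters 1, 2 and 3 resembled each other in cell cycle and cytosolic genes more than in mitochondrial RNA. The G2 and M phase list summed to 2761, 3019 and 2711 CPM, and ribosomal protein genes to 300760.0, 319217 and 315154 CPM, whereas mitochondrial RNA ran from 76338 through 7366 to 1230.1 CPM. Nuclear-retained RNAs ran with it, at 3360, 1599 and 365 CPM, and matrix genes at 1668, 787 and 732 CPM. In sub-cluster 4 the mitochondrial RNAs reached 788534 CPM and the nuclear-retained RNAs 6602 CPM, while the G2 and M phase list had 475 CPM and Gapdh, a cytosolic glycolytic enzyme, 372 CPM against 2395 to 3629 CPM in sub-clusters 1, 2, 3 and 5. Across sub-clusters 1 to 4 the highest levels of mitochondrial and of nuclear RNA thus fell in the same sub-cluster, and the lowest in sub-cluster 3.

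Chemokine genes led sub-cluster 3, but through 1 cell. A single KO cell of 5900 UMIs with 0.0847% mitochondrial UMIs held 183 of the 200 KO UMIs of Ccl2, the monocyte attractant, 65 of the 73 of Ccl5, an attractant of T cells and monocytes, and 66 of the 70 of Cxcl1, a neutrophil attractant. That is 91.5, 89.0 and 94.3% of their KO UMIs. In the WT cells these genes had 34, 7 and 7 UMIs, and 19 of the 34 Ccl2 UMIs lay in 1 cell.

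The 69 cells of sub-cluster 5 were 67 WT and 2 KO cells. Its leading genes include ones that differ between the libraries in every class, and with 1 library per genotype a library and a type cannot be told apart here. Clustering was repeated, after the data had been seen, without 2969 genes at least 2-fold apart between KO and WT in the cells named cancer stem cells, neuroblastoma cells or fibroblasts. It gave 4 groups, and the 69 cells spread over 3 of them (14, 32 and 23), as did the 16 of the erythroid-like sub-cluster (5, 7 and 4). The genes that set sub-cluster 5 apart had been removed, so its spread was fixed by the choice and shows nothing of its source. The group with a median of 4.26% mitochondrial UMIs held 32.2% of WT and 32.5% of KO cells. The groups at 0.517 and 0.103% held 26.1 and 33.0%, and 21.0 and 22.3%. The group at 82.6% held 20.7% of WT (interval 16.4 to 25.6%) and 12.1% of KO cells (9.31 to 15.5%). These intervals cover the counting of cells in 1 library each and do not compare genotypes.

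**Figure D4:**
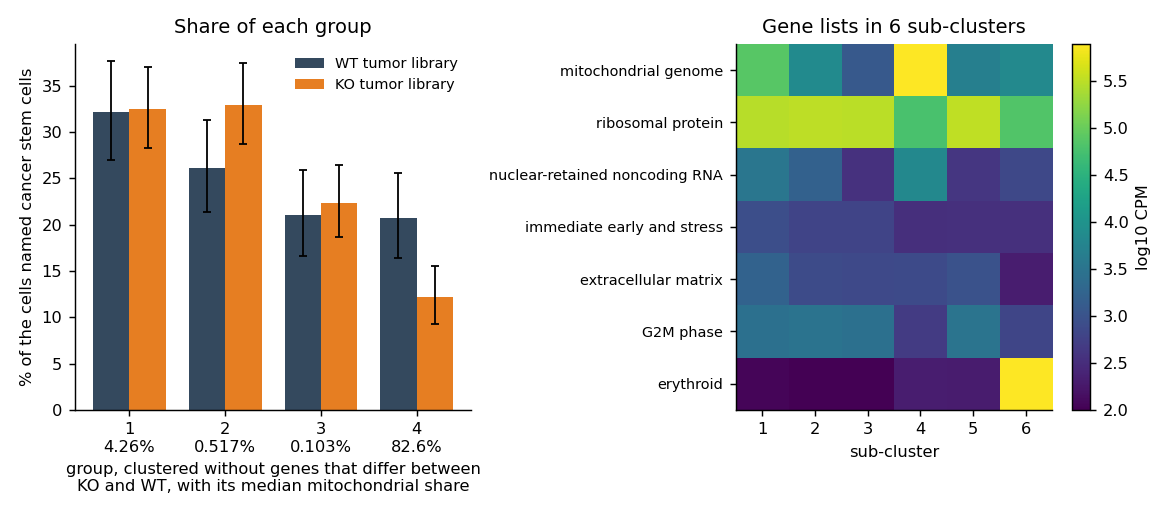
Left, percent of the cells named cancer stem cells (y axis) of each library in 4 groups clustered without genes that differ between KO and WT, with exact binomial 95% intervals and the group's median mitochondrial share under its number. Leaving those genes out draws the libraries together, so like shares are partly set by that choice. Right, summed level of 7 gene lists (log10 CPM, colour) in the 6 sub-clusters of all genes: sub-cluster 4 has the most mitochondrial and nuclear-retained RNA and little ribosomal protein mRNA, and sub-cluster 6 alone has high erythroid RNA.

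Between the genotypes, 3986 genes were compared within the cells named cancer stem cells. Relative to the median gene, 296 (7.43%) were at least 2-fold higher in KO and 105 (2.63%) at least 2-fold lower. The median gene itself lay 0.24 (log2) higher in KO by total UMIs, and scaled that way the counts were 477 and 50. In neuroblastoma cells 964 and 961 of 13033 genes were past 2-fold, and in fibroblasts 1204 and 999 of 13487.

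The genes lowest in KO were also low in the KO neuroblastoma cells and fibroblasts. Acot1, an acyl-CoA thioesterase (mm10, chromosome 12, 84009490 to 84018371, plus strand), was counted with 48 UMIs in the WT cells (55.8 CPM) and with 1 UMI in the KO cells (0.637 CPM). In neuroblastoma cells it was at 60.4 CPM in WT and 0.0959 CPM in KO, and in fibroblasts at 65.0 and 0.318 CPM. Bgn, the matrix proteoglycan biglycan, was at 79.0 CPM in WT and 3.82 CPM in KO, against 120 and 14.3 CPM in neuroblastoma cells. Its log2 ratio was -4.61 (conditional binomial interval -6.11 to -3.42) beside -3.26 in neuroblastoma cells and -2.87 in fibroblasts. Crabp2, a retinoic acid carrier, was at 82.5 and 5.73 CPM (log2 ratio -4.09, beside -6.36 and -5.34). Vim, the intermediate filament vimentin of mesenchymal cells, was at 1012 CPM in WT and 231 CPM in KO, with a ratio of -2.37 (interval -2.55 to -2.20) beside -2.47 and -2.15.

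The other 8 of the 12 lowest genes had log2 ratios from -3.43 to -2.07: Bmyc, a Myc relative, Tsc22d1, a transcription regulator, Oaf, a secreted protein, Fabp4, a fatty acid carrier, Cdkn2c, an inhibitor of Cdk4 and Cdk6, Serpinh1, the collagen chaperone, Prrx2, a mesenchymal homeobox factor, and Lum, the proteoglycan lumican. Of the 80 WT UMIs of Fabp4, 31 lay in 1 cell. Their ratios in neuroblastoma cells ran from -5.15 to -1.62 and in fibroblasts from -4.94 to -0.97. In each of the 12 the 3 classes had the same sign. Between 44.4 and 76.1% of the WT UMIs of these 12 genes lay in sub-cluster 5, which held 26.6% of the WT UMIs. In the WT cells outside it all 12 were still above the KO cells, Vim at 528 against 229 CPM and Acot1 at 25.3 against 0.638 CPM. Col1a2, the second chain of collagen I, did not pass the filter, with 43.0 CPM in WT and 0 in KO, and in neuroblastoma cells 366 and 0.623 CPM.

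The genes highest in KO were chosen for their ratio in these cells, so a larger ratio here than in the other classes is partly set by the choice. Hipk1, a nuclear kinase, had 8.14 CPM in WT (7 UMIs) and 55.4 CPM in KO (87 UMIs), with a log2 ratio of 2.52 (interval 1.42 to 3.88), beside 30.1 and 46.7 CPM in neuroblastoma cells (0.44) and 26.1 and 51.2 CPM in fibroblasts (0.68). Cnot1, the scaffold of the complex that removes poly(A) tails, had 15.1 and 92.3 CPM, with 2.37 beside 0.77 and 0.90. Pum2, an RNA-binding repressor of translation, had 18.6 and 99.95 CPM, with 2.18 beside 0.53 and 0.79. Fasn, fatty acid synthase, had 24.4 and 110 CPM, with 1.93 (1.27 to 2.66) beside 0.45 and 0.47. For these genes the KO cells stood near the neuroblastoma level, and the WT cells stood below it. At least 50 CPM was required in 1 genotype, and for these genes and the 8 below only the KO cells reached it. A low WT value beside an ordinary KO value is thus partly set by the choice.

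The remaining 8 were Ect2, an exchange factor needed for cytokinesis, Arid1b, a chromatin remodelling subunit, Pkp4, a junction protein, Oga, which removes O-linked GlcNAc, Ide, the insulin-degrading enzyme, Gatad2b, a subunit of the NuRD complex, Msi2, an RNA-binding protein of progenitor cells, and Chaf1a, a histone chaperone of replication. Their log2 ratios ran from 1.98 to 2.23, those in neuroblastoma cells from 0.15 to 0.74 and in fibroblasts from -0.06 to 0.92. Each of the 8 had from 8 to 12 UMIs in WT. Over all 12 genes the WT counts were 7 to 21 UMIs a gene. Median genes per cell (574 in WT, 845 in KO) and the share of cells over 10% mitochondrial UMIs differed between the libraries as well, and their part in these ratios was not tested.

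**Figure D5:**
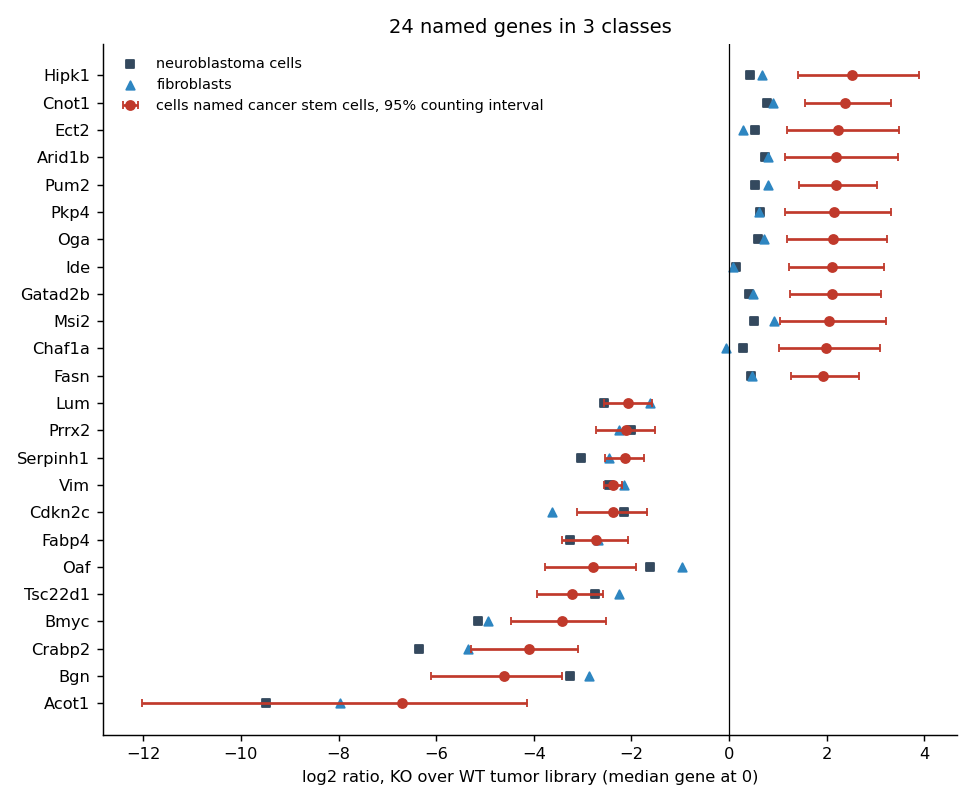
Log2 ratio of KO over WT tumor library (x axis, relative to the median gene) of the 12 highest and 12 lowest genes in cells named cancer stem cells (circles, 95% counting intervals), with the same ratio in neuroblastoma cells (squares) and fibroblasts (triangles). The genes were chosen by the circles, so where these lie relative to the other classes, whose ratios are given for reference, is a description only.

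The 13 mitochondrial genes had a median KO over WT log2 ratio of -0.91 with 2 of 13 past 2-fold lower, mt-Cytb and mt-Atp6, beside medians of 0.31 in neuroblastoma cells and 0.25 in fibroblasts. mt-Atp6, a subunit of the mitochondrial ATP synthase, was at 49638 CPM in WT and 28342 CPM in KO, against 13644 and 20485 CPM in neuroblastoma cells. The share of cells over 10% mitochondrial UMIs, 27.7% in WT and 16.5% in KO, moved with it, and its part in the genes above was not tested. Without those cells in any class the list had a KO over WT median of 0.50 (11 measured), the opposite sign, and 267 of 3483 genes were 2-fold higher in KO and 82 lower. Of 19 G2 and M phase genes 2 were higher in KO (Mki67 and Bub1, a spindle checkpoint kinase), near the 7.43% of all genes, with a list median of 0.35. Of 12 matrix genes 1 was higher (Col5a1), again near 7.43%, and 2 were lower (Bgn and Mmp2, a gelatinase), where 2.63% of all genes were. Immediate early genes (9 measured, median 0.08), ribosomal protein genes (82 measured, 1 lower, median -0.23) and erythroid genes (7 measured, median -0.78, beside -2.44 in neuroblastoma cells and -2.14 in fibroblasts) had 0 genes past 2-fold higher.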

How the data were processed

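Whole tumor digests were profiled with 10x 3' chemistry. Seurat 4.0.5, Cell Ranger 6.0.1 and the mm10 genome are listed, without roles, per the submitters' processing notes; filters and doublet treatment are not given in the sources used here. The authors deposited natural log values, ln(1 + 10000 x UMIs / total), for 20376 cells and 19715 genes, with totals and cell names. The UMI counts that the authors had normalized per cell before they deposited them were recovered by inverting this: 60957742 of 60957742 nonzero values came out whole within 0.01 UMI.

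UMIs were summed per named class and library and given as CPM. Genes needed 20 expected UMIs in the smaller arm, and 2-fold was read relative to the median gene. Intervals are 95% Poisson, Clopper-Pearson or conditional binomial, and cover counting error only. A count of 0 was read against a floor of 3 counts. With 1 library per genotype, no test was made. No doublet caller was run, and cells with at least 3 markers in each of 2 lineages were left out as an alternative. Sub-clusters used 1000 genes, 15 components, 15 neighbours and Leiden at resolution 0.5.

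The genes named are the given markers, the 12 highest and 12 lowest per comparison (all 8 where fewer passed; KO against WT with at least 50 CPM in 1 genotype), members of lists, and leading genes of sub-clusters. Ccn1, Tmx4, Mki67, Gapdh, mt-Atp6 and the chemokines were singled out with their values known. The members and the 40 lists were chosen with earlier results of these data known, 6 of the lists after values were seen. Gene positions are from the GENCODE annotation of mm10. Python 3.11.15, numpy 2.4.6, pandas 2.3.3, scipy 1.17.1, scikit-learn 1.9.0, leidenalg 0.10.2 and matplotlib 3.10.9 were used. The code was tested on simulated data.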

Additional observations from a re-analysis of the deposited data

How the results depend on the processing

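No paired analysis was possible because each genotype is 1 library and its cells carry no replicate number; for the same reason no replicate could be left out. Against neuroblastoma cells and fibroblasts, 8 genes were higher and 169 lower. By total UMIs 263 were lower. Thinned to 500 UMIs per cell, 4 were higher and 22 lower of 823. Without cells with a hemoglobin or Alas2 UMI, 1 and 72 of 2133 passed, and with a filter of 50 expected UMIs 4 and 62 of 1832. The next were chosen after seeing the data: without cells over 10% hemoglobin UMIs 1 gene was higher, whether they were left out of these cells alone or of all 3 classes, in cells under 5000 UMIs 88 were lower, and in cells of 1 to 10% mitochondrial UMIs 4 were higher and 43 lower of 1370. Between KO and WT, 296 genes were higher and 105 lower. The counts were 477 and 50 by total UMIs, 20 and 11 of 905 when thinned, 101 and 37 of 2185 without cells with a hemoglobin or Alas2 UMI, 59 and 25 of 1843 with the filter of 50, 135 and 60 of 2510 under 5000 UMIs, and 52 and 30 of 1508 at 1 to 10% mitochondrial UMIs. With equal weight per cell 197 were lower. Fewer genes were measured in the smaller sets, and other causes were not tested. The shares of cells, 6.34% in WT and 7.82% in KO, were 4.74 and 6.43% without cells under 1000 UMIs, 5.25 and 9.33% without cells over 10% mitochondrial UMIs, and 7.07 and 10.9% among the 3 classes compared.

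Some ratios over the other classes changed sign. Without cells over 10% mitochondrial UMIs, Gm42418 and the median of the genes overlapping ribosomal RNA were at -0.67 and the mitochondrial genes at -2.04. With these cells alone held to 1 to 10% mitochondrial UMIs, Gm42418 was at -0.75 and the mitochondrial genes at -1.12. The remaining sign changes come from leaving out hemoglobin-bearing cells of this class while the other classes kept theirs, which sets the sign, and they say nothing of stability: without cells with a hemoglobin or Alas2 UMI, Hbb-bs was at -5.51, and without cells over 10% hemoglobin UMIs Hba-a1 was at -0.25, Hba-a2 at -0.18, Hbb-bt at -2.22, Hbb-bs at -0.46 and the erythroid list at -0.35. With such cells left out of all 3 classes, Hba-a1 was at 1.72, Hba-a2 at 1.70, Hbb-bs at 1.40 and the list at 1.70. Between KO and WT no named gene measured under an alternative changed sign. The medians of 12 lists did under at least 1 alternative: 11 had a median under 0.5 in size, and the mitochondrial genes went from -0.91 to 0.50 without cells over 10% mitochondrial UMIs and to 0.51 at 1 to 10%. At 860475 and 1570719 UMIs in all, genes under the filter could not be compared.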
